A study of Mus musculus with 6 samples.

Results

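Chemokines and their receptors were taken from a mouse RNA-sequencing data set of activated CD4+ T cells as every protein-coding gene whose symbol begins with Ccr, Cxcr, Cx3cr, Xcr, Ackr, Ccl, Cxcl, Xcl or Cx3cl followed by a digit. The rule found 67 of the 54525 genes in the table, of which 23 were receptors and 44 were ligands. The rule itself uses symbols alone and no measured value. The data came from 6 samples, 3 wild type (WT) and 3 with a conditional knockout of Abat (Abat cKO), the gene of the mitochondrial enzyme that breaks down γ-aminobutyrate, and the comparison asked how its loss changed the transcripts of T cells after activation.

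The labels give C57BL/6N mice of 6 to 8 weeks for both genotypes. The Abat cKO samples came from mice carrying a floxed Abat allele, made with a Flippase deleter from a EUCOMM tm1a allele, together with Cd4-Cre. Cd4-Cre acts from the CD4 and CD8 double-positive stage of the thymus, so that CD8 T cells of these mice carry the deletion too, and the WT animals were not described as littermates. In both groups, naive CD4+ T cells were enriched from lymph nodes and spleen with a negative-selection kit, not by sorting, and were activated for 36 h with plate-bound anti-CD3 and anti-CD28 in the presence of IL-2. The genotypes were activated and harvested separately, and a difference of genotype cannot be told apart from a difference of culture. The study calls the samples independent biological samples.

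Chemokines are small secreted proteins that guide migrating leukocytes along a gradient, and their receptors are cell-surface proteins that signal through Gi proteins to integrins and the actin cytoskeleton. The receptors a T cell carries change as it is activated: CCR7 keeps naive cells within lymphoid tissue, whereas receptors such as CCR4, CCR8 and CXCR3 take effector and regulatory cells to sites of inflammation. Activated T cells also secrete chemokines themselves, among them XCL1, CCL3, CCL4 and CCL5.

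Libraries held 19566016 to 24396746 counts on genes, and levels are given as CPM, the counts of a gene relative to the counts of its library, with library sizes scaled by edgeR's trimmed mean of M values. The Abat transcript could not check the labels, with 5, 1 and 0 counts in the WT samples and 7, 3 and 2 counts in the Abat cKO samples. Transcripts of the T cell receptor complex and its partners were abundant in every sample, the 12 genes of a CD4 T cell list summing to 3845 to 3964 CPM in WT and 3558 to 3733 CPM in Abat cKO, of which Cd4 itself gave means of 502 and 435 CPM.

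The tests were made with edgeR's quasi-likelihood method on all 13605 genes that passed a filter on low counts, with Benjamini-Hochberg adjustment, and a gene was called at an adjusted p under 0.05. Of the 67 genes, 19 passed that filter, 28 were detected in at least 1 sample but had too few counts, and 20 were at 0 in every sample. Among the 19, 5 were higher in Abat cKO, 5 were lower and 9 were not called. Across all genes tested, 31.5% were called, 18.1% as higher and 13.4% as lower. The genotypes' CPM ranges did not overlap for 10 of the 19 genes, against 45.9% of all genes tested. The median log2 fold change was 0.01 for the 19 genes and 0.00 for all genes. Of the 12 genes of the CD4 T cell list, 1 was higher, Cd2 (log2 fold change 0.88), and 6 were lower. Those with the smallest p among the lower were Cd3g (-0.76), Trac (-0.43), Trbc2 (-0.32) and Cd3e (-0.24). Cd4 was also lower (-0.21).

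All 5 genes that rose were receptors, whereas 4 of the 5 that fell were ligands. Of the 10 receptors tested, 5 were higher, among them Ccr4, Ccr8, Ccr2 and Cxcr3, and 1 was lower (Ccr7). Of the 9 ligands tested, none was higher and 4 were lower (Xcl1, Ccl4, Ccl22 and Ccl3). The median log2 fold change was 0.58 for the receptors and -0.57 for the ligands. Summed over all 44 ligands, the samples held 112, 101 and 73.0 CPM in WT and 52.2, 50.4 and 48.8 CPM in Abat cKO. Summed over all 23 receptors, they held 447, 415 and 414 CPM in WT and 477, 513 and 551 CPM in Abat cKO. Most of the receptor sum was Ccr7, which fell from a mean of 367 CPM in WT to 302 CPM in Abat cKO. Ccr4 rose from 33.6 to 140 CPM and Ccr8 from 11.3 to 45.9 CPM.

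**Figure D1:**
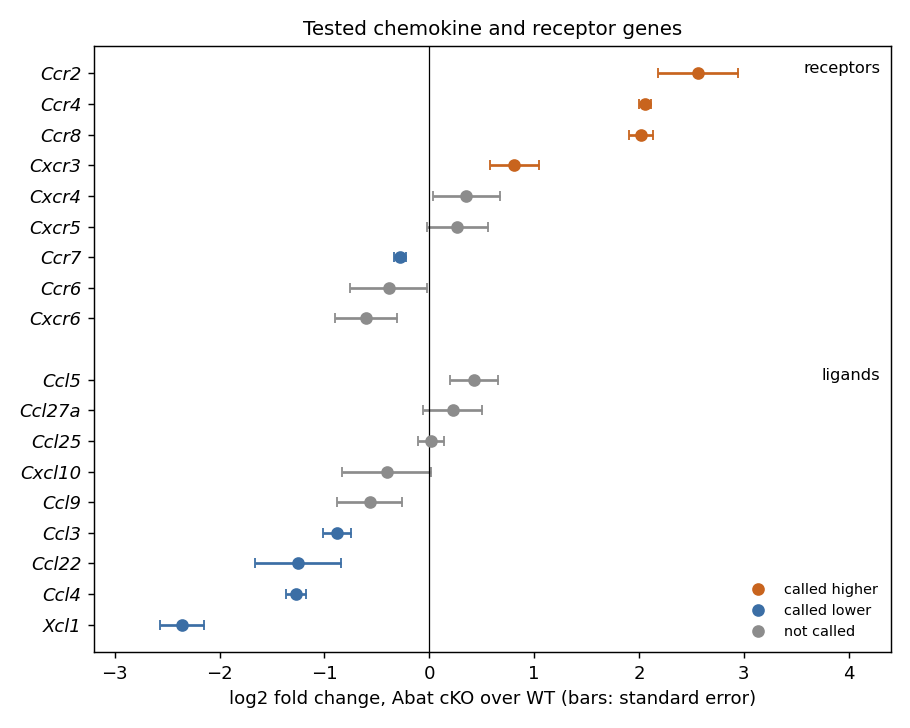
The log2 fold change of Abat cKO over WT (horizontal axis) is plotted for 9 of the 10 receptors and the 9 ligands tested, with bars for the standard error and colours for genes called higher, called lower or not called. The values run from 2.56 for Ccr2 to -2.36 for Xcl1, and every gene plotted as called higher is a receptor.

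The DNA before the start sites of 4 of the called genes is shown, so that the receptors that rose and the ligands that fell can be read side by side. Each line gives 250 bases upstream of a RefSeq start site on the GRCm38.p6 build, 5′ to 3′ on the strand of the gene. Capitals mark matches, on either strand, to the core GGAAA bound by NFAT factors, the AP-1 element TGANTCA, the GATA element AGATAA, the C/EBP-ATF response element TGATGNAA or the TATA box TATAAA. Ccl3 and Xcl1 were chosen as ligands made by T cells themselves. Ccr4 and Ccr8 were added after their values were seen, as the receptors with the highest levels among those that rose.
Xcl1 (chr1:164935523-164935772, minus strand): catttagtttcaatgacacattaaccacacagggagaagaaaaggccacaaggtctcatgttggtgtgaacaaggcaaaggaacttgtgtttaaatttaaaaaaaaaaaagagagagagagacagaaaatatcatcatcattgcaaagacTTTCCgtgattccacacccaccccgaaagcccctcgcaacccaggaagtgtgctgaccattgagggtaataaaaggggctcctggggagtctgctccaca
Ccl3 (chr11:83649379-83649628, minus strand): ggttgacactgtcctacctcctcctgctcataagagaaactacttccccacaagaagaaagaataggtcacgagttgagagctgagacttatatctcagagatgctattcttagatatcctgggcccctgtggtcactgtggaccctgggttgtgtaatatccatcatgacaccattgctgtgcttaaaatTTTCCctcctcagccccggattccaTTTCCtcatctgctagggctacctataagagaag
Ccr4 (chr9:114496545-114496794, minus strand): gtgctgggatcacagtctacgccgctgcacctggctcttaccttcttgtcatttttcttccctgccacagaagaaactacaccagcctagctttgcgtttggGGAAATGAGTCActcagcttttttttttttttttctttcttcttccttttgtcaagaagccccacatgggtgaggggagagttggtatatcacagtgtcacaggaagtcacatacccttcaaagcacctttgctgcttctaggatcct
Ccr8 (chr9:120091883-120092132, plus strand): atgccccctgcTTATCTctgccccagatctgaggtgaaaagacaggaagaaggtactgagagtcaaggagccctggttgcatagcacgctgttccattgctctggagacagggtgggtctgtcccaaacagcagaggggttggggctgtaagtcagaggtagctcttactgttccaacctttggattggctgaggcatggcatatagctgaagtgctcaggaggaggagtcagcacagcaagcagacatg

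The NFAT core lay 100 bases before the start of Xcl1, 59 and 34 bases before that of Ccl3 and 148 bases before that of Ccr4. In Ccr4 the AP-1 element began 143 bases before the start, directly after the NFAT core. The Ccr8 window held the GATA element, 239 bases before the start. None of the 4 windows held the C/EBP-ATF response element or TATAAA, and no 2 matches in a window overlapped. The NFAT core was found in 55.6% of the 32851 promoter windows of the mouse genome in the RefSeq table, the AP-1 element in 6.75%, the GATA element in 9.99%, the C/EBP-ATF response element in 3.45% and TATAAA in 12.4%. Of 53 windows matched by symbol to 46 of the chemokine and receptor genes, 36 held the NFAT core, 6 the AP-1 element, 9 the GATA element, 2 the C/EBP-ATF response element and 15 TATAAA. A match describes letters and was not tested for binding. In the GENCODE vM21 annotation, exons of the gene covered 0 to 19 bases of each window shown. The Ccr4 window lies inside the annotated gene, which has a further start site upstream. The window of Ccr2 is not shown because 233 of its bases lay in an exon there. Those of Cxcr3 and Ccl22, with 122 and 94 bases in exons, are not shown either. Each of these 2 windows held 0 matches to the elements above. No window was matched for Ccl4 or Ccr7.

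Ccr4, the receptor for CCL17 and CCL22 on type 2 helper, regulatory and skin-homing T cells, gave the smallest p of the family. It was at 35.0, 31.1 and 34.8 CPM in the WT samples and at 136, 138 and 145 CPM in the Abat cKO samples. The 3 samples of each genotype lay close together and far from those of the other. The change was 2.06 on the log2 scale (SE 0.056, n = 3 per genotype), a 4.16-fold rise, with an adjusted p of 6.98e-09 by edgeR. It was called in all 15 alternative settings.

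Ccr8, the receptor for CCL1, which marks type 2 helper and tissue regulatory T cells, was at 12.4, 11.8 and 9.58 CPM in WT and at 39.9, 45.3 and 52.4 CPM in Abat cKO. The genotypes were again well apart. The log2 change was 2.02 (SE 0.115, n = 3), with an adjusted p of 8.65e-07 by edgeR. Ccr4 and Ccr8 both lie on chromosome 9, at 114490316 to 114504916 on the minus strand and at 120092114 to 120094906 on the plus strand.

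Ccr2, on the plus strand of chromosome 9 at 124101950 to 124113557, encodes a receptor that binds CCL2 and its relatives and is best known on monocytes. It was the lowest of the called genes, with 7, 11 and 3 counts in WT and 28, 47 and 38 counts in Abat cKO. These were 0.316, 0.449 and 0.145 CPM against 1.41, 2.18 and 1.98 CPM. Every Abat cKO sample was thus above every WT sample, and WT replicate 3 was the lowest WT sample. The log2 change of Ccr2 was 2.56 (SE 0.378, n = 3), with an adjusted p of 5.57e-04 by edgeR. With a minimum of 10 counts in every sample Ccr2 was not tested. Of the 50-base words in its annotated transcripts, 1.91% also occurred in transcripts of other genes.

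Cxcr3, the receptor for the interferon-induced chemokines CXCL9 and CXCL10 on type 1 helper cells, was at 1.76, 1.47 and 1.26 CPM in WT and at 2.97, 2.13 and 2.81 CPM in Abat cKO. The ranges did not overlap, but the gap was narrow. The log2 change was 0.81 (SE 0.232, n = 3), with an adjusted p of 0.023 by edgeR. This call was lost in 7 of the 15 alternative settings, where the adjusted p rose to between 0.050 and 0.075. Among these were DESeq2 (adjusted p of 0.058) and leaving out WT replicate 2 (0.075), WT replicate 3 (0.068), Abat cKO replicate 1 (0.053) or Abat cKO replicate 3 (0.073).

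Ccr7, the receptor for CCL19 and CCL21 that holds naive and central memory T cells in lymph nodes, was the only receptor called lower among the 10 tested. It was at 386, 357 and 359 CPM in WT and at 279, 303 and 324 CPM in Abat cKO. All 3 Abat cKO samples were below all 3 WT samples, by a small margin compared with the receptors that rose. The gene fell by 0.28 on the log2 scale (SE 0.058, n = 3), with an adjusted p of 0.0042 by edgeR, and was called in all 15 alternative settings, between -0.35 and -0.23.

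**Figure D2:**
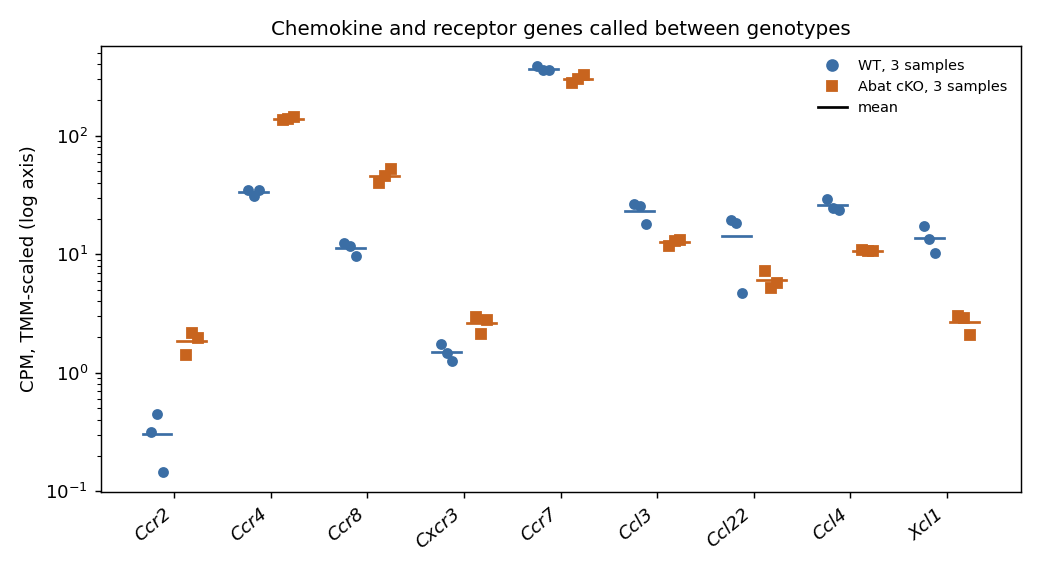
The CPM of each sample (log axis) is plotted for 9 of the 10 called genes, with circles for the 3 WT samples, squares for the 3 Abat cKO samples and lines for the means. The genotypes are apart for every gene plotted but Ccl22, where WT replicate 3 lies at 4.70 CPM, under the 3 Abat cKO samples.

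The other 4 receptors tested were not called. Their log2 fold changes were 0.35 for Cxcr4, the receptor for CXCL12, 0.27 for Cxcr5, which takes follicular helper T cells to B cell follicles, -0.39 for Ccr6, the receptor for CCL20 on TH17 cells, and -0.61 for Cxcr6, the receptor for CXCL16. Their genotypes overlapped. Exons of Cxcr5 overlap those of Bcl9l on the other strand, and whether the counting used strand is not given in the sources used here. The 13 remaining receptors had too few counts to test. Cx3cr1 had 2 to 4 counts in WT and 4 to 6 in Abat cKO, Ccr1 had 0 to 2 and 2 to 6, and Ccr9 had 2 to 5 and 0 to 3. Ccr3, Ccr10, Cxcr1, Cxcr2, Xcr1, Ackr2, Ackr3 and Ackr4 had at most 2 counts in any sample, and Ackr1 and Ccr1l1 had none.

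Among the ligands, those known to be made by activated T and natural killer (NK) cells carried most of the difference. Xcl1, Ccl3, Ccl4, Ccl5 and Ccl1 together summed to 75.2, 66.2 and 53.4 CPM in WT and to 27.8, 28.6 and 27.9 CPM in Abat cKO. Of the 4 that were tested, 3 were lower, beside 13.4% of all genes tested.

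Xcl1, which draws cross-presenting dendritic cells through their receptor XCR1, showed the largest fall of the 19 genes tested. It was at 17.3, 13.4 and 10.3 CPM in WT and at 3.03, 2.88 and 2.08 CPM in Abat cKO. The lowest WT sample was thus well above the highest Abat cKO sample. Xcl1 fell by 2.36 on the log2 scale (SE 0.209, n = 3), which made it 5.12-fold higher in WT, with an adjusted p of 1.84e-05 by edgeR. It lies on the minus strand of chromosome 1 at 164931644 to 164935527, and 10.8% of its 50-base words also occurred in transcripts of another gene model, Gm20743.

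Ccl4 and Ccl3, inflammatory chemokines that draw effector T cells and monocytes, lie side by side on chromosome 11 at 83662584 to 83664683 and at 83647844 to 83649355. Ccl4 was at 29.4, 24.7 and 23.5 CPM in WT and at 10.8, 10.7 and 10.6 CPM in Abat cKO. The Abat cKO samples were nearly equal and all below the WT samples. Ccl4 fell by 1.27 on the log2 scale (SE 0.092, n = 3), with an adjusted p of 4.30e-06 by edgeR.

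Ccl3 was at 26.4, 25.4 and 17.9 CPM in WT and at 11.7, 12.9 and 13.2 CPM in Abat cKO. The genotypes did not overlap, and WT replicate 3 came nearest to the Abat cKO samples. Ccl3 fell by 0.88 on the log2 scale (SE 0.135, n = 3), with an adjusted p of 6.88e-04 by edgeR. Neither gene shared a 50-base word with another gene's transcripts.

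Ccl5, typical of cytotoxic and memory T cells, was not called. It was at 1.31, 1.47 and 1.31 CPM in WT and at 2.02, 1.62 and 1.87 CPM in Abat cKO. Its genotypes did not overlap, with higher values in Abat cKO, but the log2 change of 0.43 had an adjusted p of 0.186 by edgeR.

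Ccl1, the ligand of CCR8, did not pass the filter. It had 19, 32 and 9 counts in WT and 4, 10 and 4 counts in Abat cKO, and the lowest WT sample lay within the range of Abat cKO. With no filter on low counts it was called, with a log2 change of -1.55 and an adjusted p of 0.0051 by edgeR.

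Ccl22, a ligand of CCR4 made by dendritic cells, B cells and activated T cells, was at 19.5, 18.4 and 4.70 CPM in WT and at 7.26, 5.15 and 5.67 CPM in Abat cKO. WT replicate 3 was below all 3 Abat cKO samples, and WT replicates 1 and 2 were well above them. The log2 change was -1.25 (SE 0.414, n = 3), with an adjusted p of 0.042 by edgeR, which was lost with DESeq2 (0.13) and without WT replicate 1 (0.16), WT replicate 2 (0.15), Abat cKO replicate 2 (0.14) or Abat cKO replicate 3 (0.086). Without WT replicate 3 the call held.

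The other 4 ligands tested were not called. Cxcl10, an interferon-induced ligand of CXCR3, had a log2 fold change of -0.41, and Ccl9, a ligand of CCR1, had one of -0.57. Ccl9 was called lower without WT replicate 3, at an adjusted p of 0.048 by edgeR. Ccl25, the ligand of CCR9, stood at 0.01, and its exons overlap those of Elavl1 on the other strand. Ccl27a, a ligand of CCR10, stood at 0.22, and its value is uncertain because 45.0% of its 50-base words also occurred in near-identical copies and other genes.

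Of the ligands that did not pass the filter, 18 were at 0 in every sample. Ccl6 had no counts in the WT samples and 5, 3 and 10 counts in the Abat cKO samples. Against a floor of 3 counts over the WT group it was at least 6.66-fold higher in Abat cKO, and with no filter on low counts it was called at an adjusted p of 2.17e-04 by edgeR. Ccl28 had 7, 3 and 11 counts in WT and 1, 1 and 4 in Abat cKO, with an adjusted p of 0.12 by edgeR when no filter was used. Cxcl3, Cxcl9, Cxcl16 and Ccl20 had 0 to 14 counts in a sample. Cxcl2, a ligand that draws neutrophils, had 6, 4 and 0 counts in WT and 7, 5 and 6 in Abat cKO. The study's heatmap source data list Cxcl2 at other values than the deposited table, which alone is used here. Ccl2, Ccl7, Ccl12, Ccl17, Ccl24, Cx3cl1, Cxcl1, Cxcl5 and Cxcl14 had at most 2 counts in any sample. The 18 ligands at 0 were Ccl8, Ccl11, Ccl19, Ccl21a, Ccl21b, Ccl21c, Ccl26, Ccl27b, Cxcl12, Cxcl13, Cxcl15, Cxcl17 and 6 second copies of Ccl19, Ccl21a, Ccl21b, Ccl21c and Ccl27a. A count of 0 allows up to 3 counts, which correspond to 0.122 to 0.156 CPM in these libraries, so a gene at 0 may have been present below that level.

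Read by ligand and receptor pair, Ccr4 rose by 2.06 on the log2 scale. Its ligand Ccl22 fell by 1.25, a call lost in 5 of the 15 alternative settings, and WT replicate 3 lay below the Abat cKO samples for Ccl22 but with the other WT samples for Ccr4. The other CCR4 ligand, Ccl17, had at most 2 counts. Ccr8 rose by 2.02, and its ligand Ccl1 had 60 counts over the 3 WT samples and 18 over the 3 Abat cKO samples. Cxcr3 rose by 0.81, called in 8 of the 15 alternative settings. Its ligand Cxcl10 was not called (-0.41), and Cxcl9 had 17 counts over the 3 WT samples and 27 over the 3 Abat cKO samples. Ccr2 rose by 2.56, and its ligand Ccl2 had at most 2 counts in any sample. Ccr7 fell by 0.28, and its ligands Ccl19, Ccl21a, Ccl21b and Ccl21c were at 0. Xcr1, the receptor for XCL1, had at most 1 count in any sample.

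Levels of different genes were compared per kilobase of gene length (RPKM). In WT, Ccr7 stood above all other genes of the family at 186 ± 8.29 RPKM (SD, n = 3), followed by Ccl4 at 39.2 ± 4.76, Ccl3 at 30.3 ± 6.07 and Xcl1 at 26.1 ± 6.68. The ranges of Ccl3 and Xcl1 over the 3 WT samples overlapped, whereas those of Ccl4 and Ccl3 did not. These differences between genes were not tested. Ccr4 at 12.0 ± 0.784 RPKM and Ccr8 at 9.58 ± 1.26 RPKM came next. In Abat cKO the order changed below Ccr7, which stayed first at 153 ± 11.3 RPKM. Ccr4 was second at 49.8 ± 1.77 RPKM and Ccr8 next at 39.0 ± 5.36 RPKM, and Ccl3 at 16.5 ± 0.991 and Ccl4 at 16.2 ± 0.136 RPKM followed, with overlapping ranges. The other genes were at 6.41 RPKM or less in WT and at 5.09 RPKM or less in Abat cKO.

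**Figure D3:**
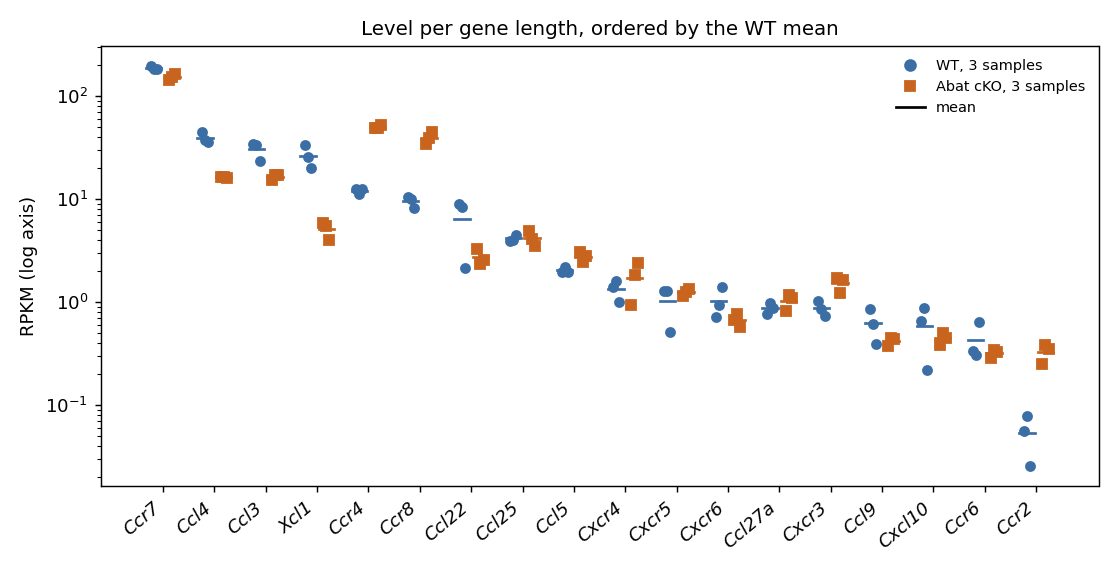
RPKM (log axis) is plotted for 18 of the 19 genes tested in the order of their WT means, with circles for WT samples, squares for Abat cKO samples and lines for means. Ccr7 leads in both genotypes, at 186 and 153 RPKM, and Ccr4 and Ccr8 stand above Ccl4, Ccl3 and Xcl1 in Abat cKO but below them in WT.

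The genes lie in runs along the genome. On chromosome 11, a run from 83525778 to 83664683 holds Ccl5, Ccl9, Ccl6, Ccl3 and Ccl4, of which 4 were tested and 2, Ccl3 and Ccl4, were lower. A second run on that chromosome, from 82035571 to 82305690, holds Ccl2, Ccl7, Ccl11, Ccl12, Ccl8 and Ccl1 and had no gene that passed the filter.

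The samples of a genotype were not alike for all of these genes. WT replicate 3 was the lowest WT sample for 13 of the 19 genes tested (68.4%), against 38.4% of all genes tested. The mean of WT replicates 1 and 2 was 4.04-fold above WT replicate 3 for Ccl22, 3.52-fold for Cxcl10, 2.63-fold for Ccr2 and 2.49-fold for Cxcr5. For Ccr4 and Ccr7 it was 0.950-fold and 1.04-fold. Without WT replicate 3, 22 genes of the family passed the filter instead of 19. Of the 5 genes called higher, 4 were then called, Cxcr3 being lost, and 7 of the 22 were lower.

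**Figure D4:**
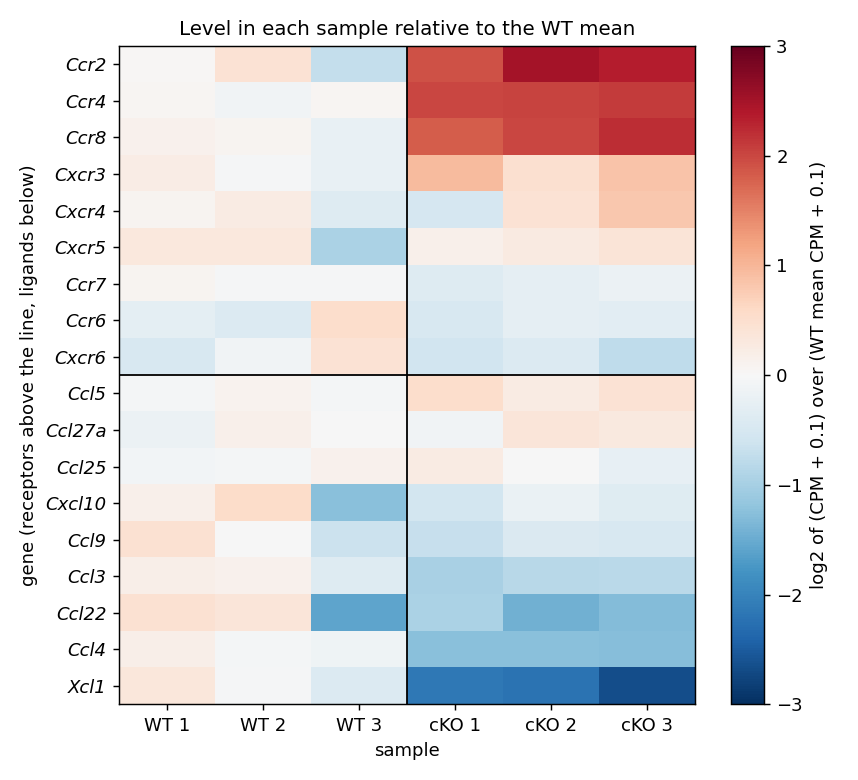
Each cell gives the log2 of a sample's CPM over the WT mean, with 0.1 CPM added to both, for 9 of the 10 receptors and the 9 ligands tested in each of the 6 samples. WT replicate 3 is paler or bluer than WT replicates 1 and 2 for genes such as Ccl22, Cxcl10 and Cxcr5, and the 3 Abat cKO samples are alike for Ccr4, Ccl4 and Xcl1.

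Transcripts of other cell types were low but moved with genotype and with WT replicate 3. The 10 B cell markers summed to 28.8, 34.9 and 13.6 CPM in WT and to 6.20, 6.91 and 6.50 CPM in Abat cKO. Of the 7 tested, 6 were lower, beside 13.4% of all genes tested. The 2 CD8 markers summed to 21.3, 24.2 and 7.50 CPM in WT and to 5.75, 6.49 and 5.62 CPM in Abat cKO, and both were lower. WT replicate 3 was thus below the other WT samples for both lists, as it was for Ccl22.

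The 5 NK cell markers summed to 2.89, 4.04 and 1.36 CPM in WT and to 6.25, 6.21 and 7.07 CPM in Abat cKO. Of the 4 tested, 3 were higher, beside 18.1% of all genes tested. The 5 γδ T cell markers summed to 3.75, 4.12 and 2.23 CPM in WT and to 7.56, 7.56 and 8.22 CPM in Abat cKO, with both tested genes higher. These lists were lowest in WT replicate 3, as was Ccr2. The 11 markers of monocytes, macrophages and dendritic cells summed to 3.55 to 3.92 CPM in WT and 3.17 to 4.59 CPM in Abat cKO, the only gene tested was not called, and Clec9a, a defining marker of cross-presenting dendritic cells, was at 0 in every sample. The 5 mast cell and basophil markers summed to 0.145 to 0.327 CPM in WT and 1.21 to 2.04 CPM in Abat cKO, and the 7 neutrophil markers to at most 0.367 CPM in any sample. The part of these cells in the differences of Ccl22, Xcl1, Ccl3, Ccl4 and Ccr2 was not tested, and in bulk RNA fewer cells of a type and less RNA per cell cannot be told apart.

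The pathway that runs from these receptors to movement was followed in a list of 52 genes for G proteins, their regulators, kinases, arrestins, lipid kinases and cytoskeletal effectors. Of the 48 tested, 8 were higher and 15 were lower, beside 18.1% and 13.4% of all genes, and the median log2 fold change was -0.05. The changes were small compared with those of the receptors, between -0.68 and 0.34. Those with the smallest p among the lower genes were Pik3cd (-0.60), a catalytic subunit of phosphoinositide 3-kinase, Gng2 (-0.68), a G protein γ-subunit, Rap1a (-0.30), a GTPase that activates integrins, and Ptk2b (-0.28), a focal adhesion kinase. Those among the higher genes were Rgs2 (0.29), a regulator of G protein signalling, Grk2 (0.24), a kinase that desensitises receptors, and the Rac activators Prex1 (0.24) and Dock2 (0.23). When libraries were scaled to their spike-in RNA, 0 of these genes were higher and 8 were lower. Without WT replicate 1 the number higher was 4, and it was 5 without WT replicate 2 or without Abat cKO replicate 3. Gnai2, the main Gi subunit of lymphocytes, was not called, at 0.07.

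Other receptors that steer lymphocytes, outside the chemokine family, were taken as a list of 26 genes. Of the 13 tested, 3 were higher and 5 were lower, beside 18.1% and 13.4% of all genes tested. The higher genes were Ptger2 (0.80) for prostaglandin E2, Gpr18 (0.51) and Gpr183 (0.15), the receptor for oxysterols. The lower genes included Lpar6 (-1.61) for lysophosphatidic acid, Ptger4 (-0.51), which like Ptger2 binds prostaglandin E2, Gpr55 (-1.76) and Gpr174 (-0.30). S1pr1, the receptor that lets T cells leave lymph nodes, was also lower (-0.96). Of 4 chemokine-like genes that the symbol rule left out, Mif was higher (0.21), Cklf was not called, and Pf4 and Ppbp were not tested.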

How the data were processed

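RNA from 6 samples was sequenced by the authors after removal of ribosomal RNA. The authors deposited raw counts per gene and normalized counts, a signal equal to the raw count divided by a size factor per sample. The deposited table also held the authors' own log2 fold changes, p-values and other gene descriptions, which were not used. The submitters' processing notes name Trim Galore 0.60, STAR 2.7 and RSEM 1.31, whereas the study's methods name another version of Trim Galore and another aligner and counter, so which made the counts is not settled. The deposited normalized counts were checked against the raw counts and not tested. The 92 spike-in controls were 0.817% to 1.00% of the counts and were left out.

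Counts were tested with edgeR 4.0.16 (R 4.3.3, limma 3.58.1), using trimmed-mean scaling, filterByExpr and quasi-likelihood F tests on genotype alone. Standard errors were obtained from the log2 fold change and F. RPKM used the gene lengths in the table. Positions came from GENCODE vM21, in which all 67 genes were matched by identifier, and promoters from RefSeq. The p-values rest on 3 samples per genotype, and an exact permutation test of 3 against 3 cannot go below 0.1. The fit was tested on simulated counts first. Alternatives were DESeq2 1.42.0, other scalings and filters, protein-coding genes alone, a replicate block and leaving out samples.

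The chemokine genes, the gene lists and the tests were chosen with earlier results of these data known. Every chemokine and receptor gene was counted, and those called were given with each sample's value, except 1 called gene that is not reported here. Of other lists, up to 4 genes with the smallest adjusted p in each direction were named, with Cd4, Clec9a, Gnai2 and S1pr1 added after their values were seen.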

Additional observations from a re-analysis of the deposited data

How the results depend on the processing

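Of the 19 chemokine and receptor genes tested, none changed direction while called in any of 15 alternative settings. Ccr4, Ccr8, Ccr7, Xcl1, Ccl4 and Ccl3 were called in all 15, Ccr2 in the 14 that tested it, Ccl22 in 10 and Cxcr3 in 8. With each setting's own filter, 18 to 47 of the 67 family genes were tested. Of those tested, between 4 and 6 were higher and between 4 and 7 lower. Scaling to spike-in counts moved the calls over all genes from 2464 to 1339 higher and from 1827 to 1185 lower, and those over the signalling list from 8 to 0 higher and from 15 to 8 lower. The cause was not tested. Leaving out 1 sample at a time gave 4 to 8 signalling genes higher. Samples were correlated on log CPM after each gene's mean within its genotype was subtracted, not on the levels themselves. The correlations of same-numbered samples were -0.28, 0.11 and -0.28, which gave no sign that the replicate numbers paired the samples. Those of differently numbered samples ran from -0.21 to 0.37, the highest for WT replicate 3 with Abat cKO replicate 1. With 3 samples per genotype these values cannot settle whether samples were paired. With the replicate block, 4 of the chemokine and receptor genes were higher and 5 lower (Cxcr3 at an adjusted p of 0.050), and the calls over all genes were 2028 higher and 1416 lower. Calls for genes of a few counts per sample, such as Ccr2, Ccl1 and Ccl6, are limited by depth.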
